A study of Homo sapiens with 12 samples.

Results

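The 38 genes described here encode the machinery that builds the autophagosome. They were taken by symbol from a fixed list of autophagy initiation, lipidation and receptor genes, with BECN1 and EI24 left out, and all 38 were found among the 60617 genes of the deposited table. The list was chosen with earlier results of these data known, so it was not blind to the measured values. BECN1 and EI24 fell further than any of the 38 in the siRNA experiment described below. All 38 passed the filter on low values, with means over the libraries between 56.7 and 9904 normalised read counts.

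Sequencing covered RNA from 12 libraries of PANC-1 cells, a line grown from a human pancreatic ductal carcinoma, to ask how its transcripts change when myoferlin, a membrane repair and trafficking protein encoded by MYOF, is depleted or targeted by a compound. Cells were transfected with an siRNA against MYOF (siMYOF) or with the irrelevant siRNA siGL3, or were given 50 nM of the myoferlin-targeting compound WJ460 or its solvent DMSO, with 3 libraries in each of the 4 groups and a labelled time of 48 h. In the study's methods the siRNA cells were washed after transfection before this time was counted, so both experiments are not matched in time or handling, and all results rest on 1 cell line and 1 siRNA against MYOF. By the labels, the first replicate of both siRNA groups belonged to an early batch, and the remaining 10 libraries to a late one. The methods describe separately seeded cultures for the siRNA libraries, and nothing used here says so for DMSO and WJ460, so p-values there reflect only library-to-library spread, in part perhaps technical.

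Autophagy delivers cytoplasm and organelles to the lysosome inside a double-membraned vesicle. The ULK1 kinase complex starts its formation, a lipid kinase complex marks the site with phosphatidylinositol 3-phosphate (PI3P), and ATG9 vesicles, ATG2 proteins and scramblases of the endoplasmic reticulum (ER) supply lipid. A ubiquitin-like conjugation system then attaches the small ATG8 proteins (the LC3 and GABARAP families) to the growing membrane, where they bind cargo receptors such as p62. Pancreatic ductal tumours are known for a high basal level of autophagy, and the abundance of these transcripts does not measure autophagic flux.

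The libraries held between 12335147 and 19847210 reads. Values are normalised read counts, that is, gene reads divided by 1 size factor per library, and fold changes are on the scale of log2(value + 1). The target MYOF was lower with siMYOF (log2 fold change -2.71 (SE 0.23, adjusted p = 2.41e-05), limma), and with WJ460 it did not pass the test (0.16 (SE 0.23, adjusted p = 0.603)). Of the fibroblast markers DCN, LUM, FAP and COL1A2 were at 0 in every library and the summed level of the list lay at 57.1 to 80.2 with siGL3, 47.8 to 61.0 with siMYOF, 28.6 to 40.8 with DMSO and 13.6 to 17.1 with WJ460, so it was lower with WJ460, where PDGFRB carried most of it. The leukocyte list lay between 5.22 and 37.3 and the endothelial list between 0 and 4.49, against 11245 to 38934 for epithelial markers. Mitochondrially encoded genes took 2.84% to 3.81% of reads with siGL3, 2.90% to 4.72% with siMYOF, 2.95% to 3.1% with DMSO and 3.88% to 5.06% with WJ460, and the part of these shifts in the results below was not tested. In bulk RNA, fewer cells of a type and less RNA per cell cannot be told apart.

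The 3 members with the largest changes for which a promoter was at hand are shown by the 250 bases before their annotated start, since later paragraphs turn on them. These are ULK1 (chr12:131894372-131894621, plus strand), ATG10 (chr5:81971773-81972022, plus strand) and GABARAP (chr17:7242450-7242699, minus strand), from RefSeq promoters on GRCh38.p14, written 5′ to 3′ and ending at the base before the start. No base is capitalised, because none of the motifs named below occurs in them.
ULK1: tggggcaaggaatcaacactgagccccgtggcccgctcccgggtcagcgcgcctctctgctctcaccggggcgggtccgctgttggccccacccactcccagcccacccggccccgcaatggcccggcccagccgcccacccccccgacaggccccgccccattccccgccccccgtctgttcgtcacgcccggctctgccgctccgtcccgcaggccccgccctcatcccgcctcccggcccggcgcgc
ATG10: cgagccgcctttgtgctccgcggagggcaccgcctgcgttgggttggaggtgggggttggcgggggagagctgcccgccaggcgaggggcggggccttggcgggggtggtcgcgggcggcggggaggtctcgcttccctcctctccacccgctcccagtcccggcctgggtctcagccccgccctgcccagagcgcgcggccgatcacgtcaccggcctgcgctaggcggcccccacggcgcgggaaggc
GABARAP: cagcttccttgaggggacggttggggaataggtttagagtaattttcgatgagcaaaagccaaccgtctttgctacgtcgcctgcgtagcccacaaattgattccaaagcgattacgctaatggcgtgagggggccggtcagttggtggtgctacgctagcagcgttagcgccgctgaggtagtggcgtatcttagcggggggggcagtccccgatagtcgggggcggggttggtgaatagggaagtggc

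Of the 38 members, 34 had a RefSeq promoter entry, while RB1CC1, UVRAG, ATG4D and MAP1LC3A had none. The 3 motifs were searched on both strands of the 250 bases before the start, and the matches in members did not overlap each other. CACGTG, the E-box core that the TFEB family of lysosomal transcription factors can bind, occurred in 2 of 34 members (5.88%) and in 6.49% of 27305 promoters. TGATGNAA, a response element bound by C/EBP and ATF factors, occurred in 0 of 34 members and in 3.19% of all promoters. TGACNNNGC, the core of the antioxidant response element bound by NRF2, occurred in 3 of 34 members (8.82%) and in 11.0% of all promoters. No motif was more frequent in members than in all promoters, and a link between motif and change was not tested. The 5 matches are shown with their surroundings and the motif in capitals. They begin 21 bases before the start of ATG14, 18 before ATG3, 120 before ATG101, 46 before MAP1LC3B and 129 before CALCOCO2, the last on the opposite strand, at chr14:55411834-55411863, chr3:112561963-112561992, chr12:52069848-52069877, chr16:87392280-87392309 and chr17:48830896-48830925.
ATG14: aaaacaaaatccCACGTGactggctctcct
ATG3: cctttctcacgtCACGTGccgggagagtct
ATG101: tgtgcttctgTGACTACGCggatgttgtgg
MAP1LC3B: gcgagtcaccTGACCAGGCtgcgggctgag
CALCOCO2: cgctcctgggGCCCGGTCAcctgaacacta

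With siMYOF, 15 of the 38 members rose, 1 fell and 22 did not pass the test. Across the 14720 genes tested, 28.0% were called higher and 25.9% lower beside 39.5% and 2.63% of the members. The share called lower depends on the list, because BECN1 and EI24, which were left out, fell further than any member, and with them 3 of 40 (7.5%) fell. It also depends on the scaling. Scaled by total reads instead of the deposited size factors, 8 members rose (21.1%, beside 21.7% of all genes) and 3 fell (7.89%, beside 32.3%), with a median of 0.03 beside -0.10 over all genes, and the rises of ATG101, PIK3R4, TMEM41B, VMP1, MAP1LC3B, NBR1 and CALCOCO2 no longer passed. With the deposited size factors the members' median log2 fold change was 0.14, beside 0.01 over all genes tested, and the early pair (0.17) and the late libraries (0.14) gave similar medians. Of the 16 calls, 7 had an absolute log2 fold change of at least 0.5, namely the rises of ULK1, UVRAG, ATG2B, ATG4A, ATG12 and ATG16L1 and the fall of ATG10. These are 7 of 38 members, where 4714 of 14720 genes were called with a change of that size. The early pair and the late libraries had the same sign for 27 of the 38 members, all 16 calls among them. The 16 were called from a fit that holds these same libraries, so their agreement in sign is no separate support. In the late libraries alone 12 of the 16 passed, the exceptions being ATG101, PIK3R4, MAP1LC3B and NBR1. There 3647 of 14720 genes were called higher and 3294 lower.

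With WJ460, 18 members rose, 2 fell and 18 did not pass, where 27.3% of all genes tested were called higher and 25.6% lower. The members' shares were 47.4% and 5.26%, and their median log2 fold change was 0.22 beside 0.00 over all genes. Scaled by total reads, 13 rose (34.2%, beside 17.9% of all genes) and 6 fell (15.8%, beside 35.3%), with a median of 0.06 beside -0.15, and the rises of UVRAG, ATG3, ATG4D, SQSTM1 and CALCOCO2 no longer passed. An absolute change of at least 0.5 was reached by 8 of the 20, the rises of ULK1, WDR45, ATG4A, ATG4B, ATG5, GABARAPL1 and SQSTM1 and the fall of GABARAP. These are 8 of 38 members, where 4428 of 14720 genes were called with a change of that size. ULK1 was the member with the highest rise in both comparisons.

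The members called in both comparisons were 8, all higher in both, namely ULK1, UVRAG, ATG3, ATG4A, ATG12, ATG16L1, MAP1LC3B and CALCOCO2, of which ULK1, ATG4A, ATG12 and ATG16L1 were so with scaling by total reads too. A further 7 were called higher with siMYOF alone and 10 with WJ460 alone. Over all 14720 genes tested, 28.0% were called higher with siMYOF and 27.3% with WJ460, so some joint calls arise in any list. How many of all genes were called higher in both, or in a single comparison, was not counted. The 8, 7 and 10 members therefore have no background share, and a shared response of the members was not tested. A call in a single comparison also does not show a difference between the comparisons. That difference was tested as the siMYOF effect minus the WJ460 effect, which passed for 14 members, 6 higher and 8 lower, where 24.2% of all genes were called higher and 24.0% lower. The effect was higher with siMYOF for UVRAG, ATG9A, TMEM41B, ATG12, ATG16L1 and GABARAP, and lower for ULK1, WDR45, ATG4B, ATG5, ATG10, GABARAPL1, SQSTM1 and TAX1BP1. The members' median of this difference was -0.06 beside -0.01 over all genes.

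**Figure D1:**
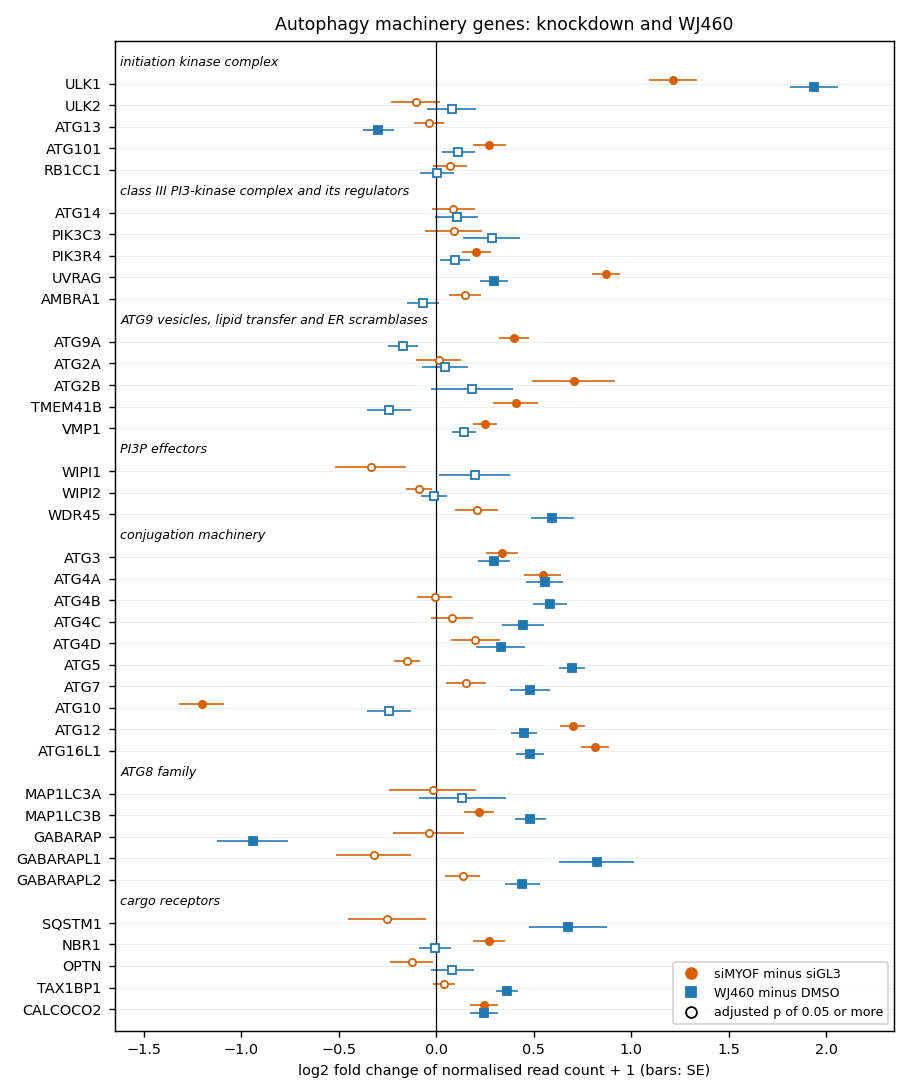
Log2 fold change (x axis, of normalised read count + 1) of the 38 members (y axis, grouped by role) for siMYOF minus siGL3 (circles) and WJ460 minus DMSO (squares), from 3 libraries a group. Bars are the SE of the limma fit and open symbols did not pass an adjusted p of 0.05. ULK1 lies furthest right in both comparisons, ATG10 furthest left with siMYOF and GABARAP furthest left with WJ460.

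ULK1, the serine/threonine kinase that starts autophagosome formation (ENSG00000177169, chromosome 12, 131894622 to 131923150, plus strand, GRCh38) rose in both comparisons. It stood at 350.1, 234 and 278 with siGL3 and at 775, 494 and 747 with siMYOF. With DMSO it stood at 274, 307 and 333 and with WJ460 at 1113, 1181 and 1208. Every treated library lay above every control library of its comparison, with the WJ460 libraries highest and the siMYOF libraries between. The mean rose from 287 ± 58.8 to 672 ± 155 with siMYOF and from 305 ± 29.9 to 1167 ± 48.7 with WJ460 (SD, n = 3), which is 2.34-fold and 3.83-fold. The log2 fold changes were 1.21 (SE 0.12, adjusted p = 2.32e-07) and 1.94 (SE 0.12, adjusted p = 1.41e-09), and the early pair (1.14) and the late libraries (1.25) differed little. On the log2 scale the WJ460 effect exceeded the siMYOF effect by 0.72 (SE 0.17, adjusted p = 0.00211), while siGL3 and DMSO did not pass against each other (-0.23, adjusted p = 0.184).

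The other 4 members of the initiation complex moved little. ATG101, a small subunit that stabilises ATG13, rose by 0.27 with siMYOF (adjusted p = 0.0104), but its early libraries were low (269.5 with siGL3 and 373 with siMYOF against 789 to 991 in the late siRNA libraries) and the late libraries alone gave 0.18 (adjusted p = 0.133). ATG13, the adaptor of the complex, fell by 0.30 with WJ460 (adjusted p = 0.00339), with 904, 948 and 871 below 1114, 1124 and 1106 for DMSO. ULK2, the paralogue of ULK1, and RB1CC1, the scaffold FIP200, passed in neither comparison, with log2 fold changes between -0.11 and 0.08. ULK2 was high in the early siGL3 library (677, against 303 to 333 in the late ones), and its early pair (-0.50) and late libraries (0.09) had opposite signs.

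UVRAG, a Beclin 1 partner in the lipid kinase complex that acts on endosomes and autophagosome maturation (chromosome 11, 75815210 to 76144232, plus strand), rose in both comparisons. Its values were 607, 683 and 623 with siGL3 and 1097, 1199 and 1205 with siMYOF. They were 541, 527 and 488 with DMSO and 630.1, 643 and 638 with WJ460. Neither pair of groups overlapped, and the WJ460 libraries reached only the level of the siGL3 libraries. UVRAG rose by 0.87 (SE 0.07, adjusted p = 9.83e-09) on the log2 scale with siMYOF and 0.30 (SE 0.07, adjusted p = 0.00175) with WJ460, and the difference of 0.57 (SE 0.10) passed with an adjusted p of 0.000118. Scaled by total reads the WJ460 rise was 0.14 and no longer passed (adjusted p = 0.119).

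The remaining members of this complex showed small values. PIK3R4, the regulatory subunit VPS15, rose by 0.21 with siMYOF (adjusted p = 0.0288), a call lost in the late libraries alone (0.23, adjusted p = 0.0506) and without siGL3 replicate 3 or siMYOF replicate 2. PIK3C3, the lipid kinase VPS34, ATG14, the subunit that directs it to autophagosome formation, and AMBRA1, a scaffold that binds Beclin 1, passed in neither comparison. Their log2 fold changes lay between 0.09 and 0.15 with siMYOF and between -0.07 and 0.28 with WJ460, the latter with a 95% interval of -0.03 to 0.59 for PIK3C3.

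**Figure D2:**
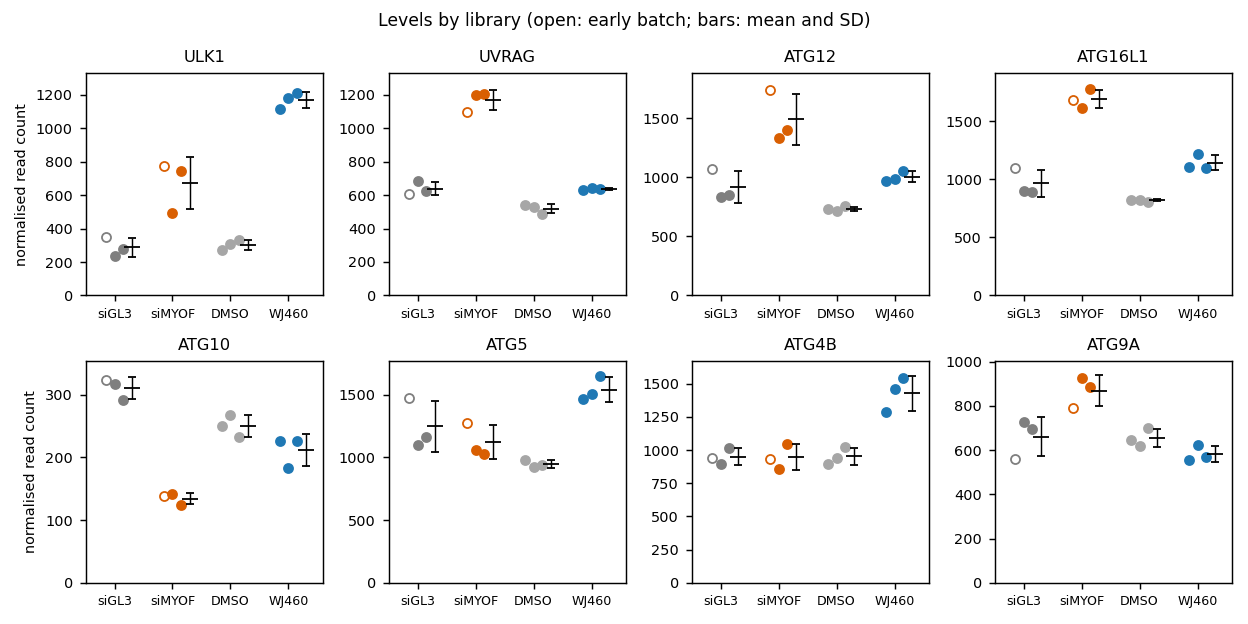
Normalised read count (y axis, linear, from 0) of 8 members in each of the 12 libraries, by group (x axis), with open points for the early batch and bars for mean and SD of 3 libraries. ULK1 rises in both treatments, ATG10 falls with siMYOF, ATG5 and ATG4B rise with WJ460, and ATG9A rises with siMYOF.

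Of the 5 genes for ATG9 vesicles, lipid transfer and scramblases, 4 rose with siMYOF (80%, beside 28.0% of all genes) and none passed with WJ460. Scaled by total reads, 2 rose with siMYOF, since TMEM41B (0.30, adjusted p = 0.0643) and VMP1 (0.14, adjusted p = 0.0775) were lost, and ATG9A (-0.33, adjusted p = 0.00118) and TMEM41B (-0.40, adjusted p = 0.0162) fell with WJ460. ATG9A, the transmembrane scramblase whose vesicles seed the membrane, stood at 562, 726 and 696 with siGL3, where the early library was lowest, and at 791, 928 and 885 with siMYOF. With DMSO it stood at 646, 620.0 and 698 and with WJ460 at 554, 622 and 569, and these groups overlapped while the siRNA groups did not. The log2 fold change was 0.40 (SE 0.08, adjusted p = 0.00023) with siMYOF and -0.17 (SE 0.08, adjusted p = 0.0694) with WJ460, and the difference between both effects, 0.57 (SE 0.11, adjusted p = 0.000266), passed.

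TMEM41B, an ER scramblase needed for autophagosome formation, was highest in the early siRNA libraries. It stood at 1520.2, 773 and 658 with siGL3 and 1932, 938 and 995 with siMYOF. The groups overlapped, although each siMYOF library exceeded the siGL3 libraries of its batch. With DMSO it stood at 1273, 1287 and 1271 and with WJ460 at 1391, 952 and 951. The log2 fold change was 0.41 (SE 0.11, adjusted p = 0.00668) with siMYOF, and 0.35 for the early pair beside 0.44 for the late libraries. With WJ460 it was -0.24 (SE 0.11, adjusted p = 0.0872), and without WJ460 replicate 1, the highest of its group, it was -0.42 and passed (adjusted p = 0.000159). The difference between both effects was 0.65 (SE 0.16, adjusted p = 0.00341).

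VMP1, its partner scramblase, rose by 0.25 with siMYOF (adjusted p = 0.00193), 0.17 for the early pair and 0.29 for the late libraries, and stood at 0.14 with WJ460 (adjusted p = 0.059). ATG2B, a lipid transfer protein, was a gene of few reads at 84.7, 57.6 and 29.0 with siGL3, 108, 77.4 and 75.4 with siMYOF, 86.6, 70.6 and 89.5 with DMSO and 93.2, 105 and 81.9 with WJ460. The siRNA groups overlapped, and the siGL3 mean was lowered by replicate 3. Its rise of 0.71 (SE 0.21, adjusted p = 0.00864) with siMYOF dropped to 0.38 without siGL3 replicate 3 and did not pass (adjusted p = 0.0849). ATG2A, its paralogue, lay at 0.01 with siMYOF and 0.05 with WJ460.

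Among the PI3P effectors, the propeller proteins that read the lipid mark, only WDR45 (WIPI4) passed, with WJ460. It stood at 184, 209.6 and 211 with DMSO and 326, 281 and 309.8 with WJ460, which did not overlap, and at 229, 216 and 260.2 with siGL3 and 288, 250.4 and 274 with siMYOF, which did. Its log2 fold change was 0.60 (SE 0.11, adjusted p = 0.000149) with WJ460 and 0.21 (SE 0.11, adjusted p = 0.12) with siMYOF. The difference of -0.39 (adjusted p = 0.0442) was lost with DESeq2 (adjusted p = 0.0618) and on leaving out any 1 of 8 libraries (siGL3 replicate 3, siMYOF replicates 2 and 3, all of DMSO, WJ460 replicates 1 and 3, with adjusted p from 0.0516 to 0.129). WIPI2, which recruits ATG16L1, lay at -0.09 and -0.01, and WIPI1 at -0.34 (adjusted p = 0.13) and 0.20 (adjusted p = 0.383). WIPI1 was higher with siGL3 than with DMSO by 0.79 (adjusted p = 0.00445).

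The conjugation machinery held 10 members. With WJ460 9 rose (90%, beside 27.3% of all genes), with a median log2 fold change of 0.46. With siMYOF 4 rose (40%, beside 28.0%) and 1 fell (10%, beside 25.9%). ATG10 was the exception with WJ460. Scaled by total reads, 7 rose (beside 17.9% of all genes) and ATG10 fell (beside 35.3%) with WJ460, since ATG3 and ATG4D no longer passed. Without WJ460 replicate 1 the count of rises was 8, where 3958 of 14720 genes were called higher.

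ATG10, the conjugating enzyme that joins ATG12 to ATG5 (ENSG00000152348, chromosome 5, 81972023 to 82276857, plus strand), was the only member that fell with siMYOF. It stood at 323, 317 and 291 with siGL3 and 138, 141 and 124 with siMYOF. It stood at 250.1, 268 and 232 with DMSO and 226, 183 and 227 with WJ460. The siMYOF libraries, early and late alike, were lower than all other libraries, and the WJ460 libraries lay just under the DMSO range without overlap. The mean with siMYOF was 43.3% of that with siGL3 (134 ± 8.92 against 311 ± 17.1, SD, n = 3), and its log2 fold change was -1.20 (SE 0.11, adjusted p = 6.07e-08), or -1.23 for the early pair and -1.19 for the late libraries. With WJ460 it was -0.24 (SE 0.11, adjusted p = 0.0807), and the difference of -0.96 (SE 0.16) passed with an adjusted p of 7.3e-05. The opposite-strand gene RPS23 covers 6.87% of the ATG10 exon bases and was far more abundant, at 5129.9 to 10971 with siGL3 and 5876 to 10248 with siMYOF, in the early libraries lower than in the late ones of both groups. Whether the authors' counting used strand is not given in the sources used here, so reads of both genes may be shared.

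The 3 genes of the complex that sets where ATG8 is attached did not move alike. ATG12, a ubiquitin-like protein, stood at 1069.9, 830.0 and 848 with siGL3 and 1739, 1331 and 1397 with siMYOF, and at 729.6, 718 and 752 with DMSO and 969.8, 982 and 1056 with WJ460. ATG16L1, which anchors the complex to the membrane, stood at 1100.2, 903 and 894 with siGL3 and 1687, 1616 and 1775 with siMYOF, and at 821, 826 and 809 with DMSO and 1110.2, 1222 and 1102 with WJ460. For both, neither comparison's groups overlapped, and every siMYOF library was higher than every WJ460 library.

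The log2 fold changes of ATG12 were 0.70 (SE 0.07, adjusted p = 4.86e-08) with siMYOF, the same for the early pair as for the late libraries (0.70), and 0.45 (SE 0.07, adjusted p = 1.17e-05) with WJ460. For ATG16L1 they were 0.81 (SE 0.07, adjusted p = 3.75e-08) with siMYOF, or 0.62 for the early pair and 0.91 for the late libraries, and 0.48 (SE 0.07, adjusted p = 2.34e-05) with WJ460. Both rises were higher with siMYOF, by 0.25 for ATG12 (adjusted p = 0.0311) and 0.33 for ATG16L1 (adjusted p = 0.013), but the ATG12 difference was lost in the late libraries alone (0.25, adjusted p = 0.0554) and on leaving out siGL3 replicate 2, siMYOF replicate 3, DMSO replicate 1 or 3 or WJ460 replicate 1 or 2 (0.23 to 0.25). The ATG16L1 difference was 0.27 without siMYOF replicate 3 (adjusted p = 0.0512).

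ATG5, the acceptor of ATG12, rose with WJ460 and did not pass with siMYOF. It stood at 1478, 1099.8 and 1167 with siGL3 and 1278, 1057 and 1029.6 with siMYOF, and at 981, 924 and 940.2 with DMSO and 1465, 1504 and 1652 with WJ460. The WJ460 libraries lay above all DMSO libraries, while the siRNA groups overlapped and the early library was the highest in each. The log2 fold change was 0.70 (SE 0.07, adjusted p = 9.37e-08) with WJ460 and -0.15 (SE 0.07, adjusted p = 0.0687) with siMYOF, and the difference of -0.85 (SE 0.09, adjusted p = 7.96e-07) had the smallest p of the 38 members. With edgeR the siMYOF value was -0.17 and passed (adjusted p = 0.0452).

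The ATG4 proteases prepare ATG8 proteins for conjugation and remove them again. ATG4A stood at 457, 386 and 450.1 with siGL3 and 623, 635 and 626 with siMYOF, and at 377, 346 and 353 with DMSO and 462, 591 and 539 with WJ460, with no overlap in either comparison. Its log2 fold changes, 0.55 (SE 0.10, adjusted p = 8.58e-05) and 0.56 (SE 0.10, adjusted p = 7.55e-05), differed by -0.01 with a 95% interval of -0.29 to 0.27. ATG4B, the most active of the family, stood at 939.6, 893 and 1019 with siGL3, 933, 858 and 1049.6 with siMYOF, 894, 942 and 1019.9 with DMSO and 1285, 1461 and 1541 with WJ460. The WJ460 libraries stood above the other 9, and ATG4B rose by 0.58 (SE 0.09, adjusted p = 1.91e-05) with WJ460 beside -0.01 (SE 0.09, adjusted p = 0.945) with siMYOF, a difference of -0.59 (adjusted p = 0.00066).

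The other 4 conjugation genes that rose with WJ460 did so by less than 0.5. ATG7, the activating enzyme, rose by 0.48 (adjusted p = 0.000747), ATG4C by 0.44 (adjusted p = 0.00201), ATG4D by 0.33 (adjusted p = 0.033) and ATG3, the conjugating enzyme for ATG8, by 0.29 (adjusted p = 0.00582). ATG3 also rose with siMYOF, by 0.34 (adjusted p = 0.00209), and the other 3 did not pass there. ATG7 was low in the early libraries (546 with siGL3 and 823 with siMYOF against 1144 to 1288 in the late siRNA libraries), and its early pair gave 0.59 where the late libraries gave -0.07. The ATG4D call was lost on leaving out DMSO replicate 1 or 2 or WJ460 replicate 1 or 3 (0.26 to 0.34, adjusted p from 0.065 to 0.145). The opposite-strand genes VGLL4 and KRI1 cover 18.1% of the ATG7 and 14.7% of the ATG4D exon bases. KRI1 itself was higher with WJ460 (1105, 1410 and 1368) than with DMSO (877, 917 and 875). VGLL4 overlapped between WJ460 (534, 471 and 450) and DMSO (502, 481 and 506). Whether reads were shared was not tested.

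Of the 5 genes of the ATG8 family, the small proteins that are attached to the membrane, 3 rose (60%, beside 27.3% of all genes) with WJ460. A fall with WJ460 was called for 1 (20%, beside 25.6%), and a rise with siMYOF for 1 (20%, beside 28.0%). MAP1LC3B, the LC3 protein used as the common marker of autophagosomes, stood at 1416, 1315 and 1362 with DMSO and 2110.0, 1784 and 1841 with WJ460. It stood at 1635, 1772 and 1986 with siGL3 and 2156, 1986 and 2119 with siMYOF. The WJ460 libraries lay above the DMSO libraries, and the siMYOF libraries above the siGL3 libraries, though siMYOF replicate 2 and siGL3 replicate 3 were nearly equal. MAP1LC3B rose by 0.48 (SE 0.08, adjusted p = 3.73e-05) on the log2 scale with WJ460 and by 0.22 (SE 0.08, adjusted p = 0.0227) with siMYOF, where the late libraries alone gave 0.13 (adjusted p = 0.243) and leaving out siGL3 replicate 2 or siMYOF replicate 3 also ended the call (adjusted p = 0.0721 and 0.0579). The near-identical copy MAP1LC3B2 averaged 6.48 and can share reads with it.

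GABARAP, the founding member of the GABARAP subfamily (chromosome 17, 7240008 to 7242449, minus strand), was the ATG8 gene that fell with WJ460. It stood at 146, 160.0 and 166 with DMSO and 90.0, 72 and 83.1 with WJ460, with no overlap and a mean at 51.9% of the control. It stood at 24.9, 111 and 168 with siGL3 and 16.7, 158 and 159.8 with siMYOF, where the early library of each group was the lowest by far. The log2 fold change was -0.94 (SE 0.18, adjusted p = 0.000263) with WJ460 and -0.04 (SE 0.18, adjusted p = 0.877) with siMYOF, the early pair (-0.55) and the late libraries (0.22) having opposite signs. The difference of 0.90 (SE 0.26, adjusted p = 0.00705) rose to 1.16 in the late libraries alone (adjusted p = 0.000834). Without the batch term the WJ460 fall did not pass (adjusted p = 0.418), while the 6 libraries compared gave 1.62e-05 on their own.

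GABARAPL1 moved the other way. It stood at 25.6, 38.6 and 26.6 with DMSO and 60.0, 46.9 and 53.9 with WJ460, which did not overlap, and its log2 fold change was 0.82 (SE 0.19, adjusted p = 0.0013). It stood at 208, 85.8 and 99.2 with siGL3 and 129, 80.8 and 86.5 with siMYOF, all above every DMSO and WJ460 library, with the early libraries highest. The siMYOF value was -0.32 (SE 0.19, adjusted p = 0.166), and the difference between both effects was -1.14 (SE 0.27, adjusted p = 0.00171). The siGL3 level was higher than the DMSO level by 1.69 (SE 0.20, adjusted p = 6.83e-06), so both comparisons started from different control levels.

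GABARAPL2 stood at 525, 529.5 and 489 with DMSO and 662, 653 and 789 with WJ460, and at 676, 479 and 504 with siGL3 and 652, 610.1 and 545 with siMYOF. It rose with WJ460 (0.44 (SE 0.09, adjusted p = 0.000444)), without overlap, and did not pass with siMYOF (0.14 (SE 0.09, adjusted p = 0.219)). MAP1LC3A, an LC3 gene of few reads, stood at 67.9, 51.9 and 75.8 with siGL3, 58.7, 53.5 and 82.1 with siMYOF, 40.4, 60.7 and 38.4 with DMSO and 57.9, 46.9 and 46.0 with WJ460. All 4 groups overlapped, and its changes were -0.02 (SE 0.22, adjusted p = 0.957) and 0.13 (SE 0.22, adjusted p = 0.636), with 95% intervals of -0.48 to 0.45 and -0.33 to 0.60.

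**Figure D3:**
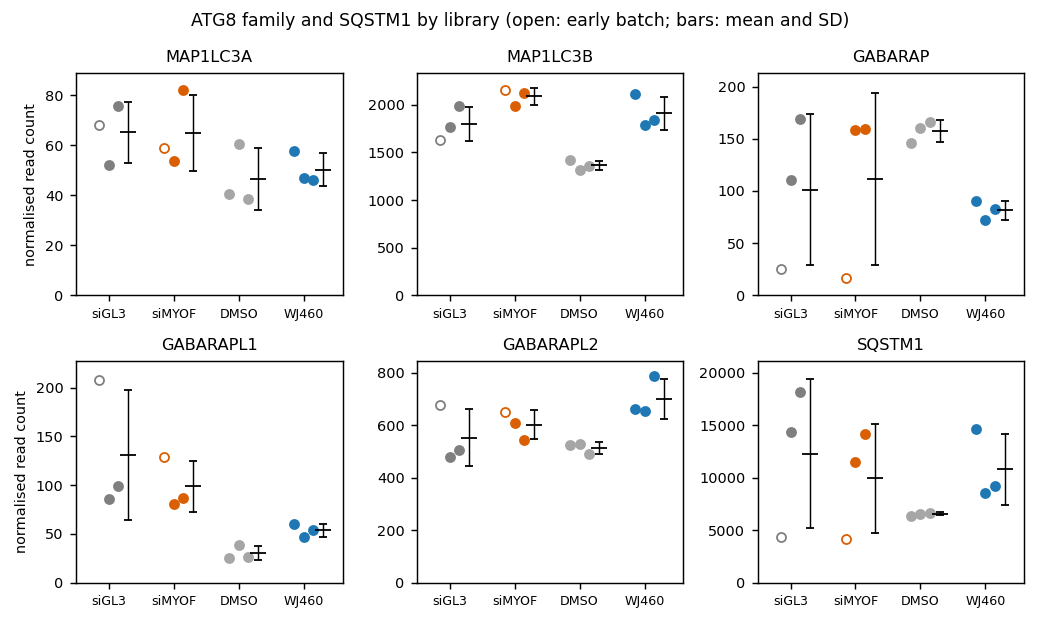
Normalised read count (y axis, linear, from 0) of the 5 ATG8 family genes and the receptor gene SQSTM1 in each library by group (x axis), with open points for the early batch and bars for mean and SD of 3 libraries. GABARAP is lower and MAP1LC3B, GABARAPL1 and GABARAPL2 are higher with WJ460 than with DMSO, and the early libraries lie apart for GABARAP, GABARAPL1 and SQSTM1.

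Per kilobase of annotated exons, the ATG8 genes kept the order of MAP1LC3B (271 normalised reads per kb with DMSO and 379.5 with WJ460) above GABARAPL2 (171 and 233) above the other 3. With DMSO GABARAP (80.6) came above MAP1LC3A (40.3) and GABARAPL1 (7.46). With WJ460 the levels of GABARAP (41.9) and MAP1LC3A (43.6) were close, and the SDs of their normalised read counts overlapped this gap. Among all 38, SQSTM1 had the highest level per kb in every group (871 to 1632) and ATG2B the lowest (4.0 to 6.56).

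The cargo receptors link ubiquitin-tagged cargo to ATG8. SQSTM1, which encodes p62 and is also a transcriptional target of NRF2, stood at 6406, 6589 and 6689.8 with DMSO and 14699, 8533 and 9211 with WJ460, where replicate 1 was far above the other two. It stood at 4387, 14334 and 18171 with siGL3 and 4131, 11540.2 and 14153 with siMYOF, where the early libraries were the lowest of all 12 and the late ones lay at 11540.2 to 18171. The WJ460 libraries did not overlap the DMSO libraries, and the log2 fold change of 0.68 (SE 0.20, adjusted p = 0.0201) was 0.43 without WJ460 replicate 1 (adjusted p = 0.0016). The call was lost with only the 6 libraries compared (adjusted p = 0.0691) and with scaling by total reads (0.52, adjusted p = 0.0738). With siMYOF it was -0.25 (SE 0.20, adjusted p = 0.323), and the difference between both effects, -0.93 (SE 0.28, adjusted p = 0.0248), dropped to -0.81 without siGL3 replicate 3 (adjusted p = 0.0723) and -0.82 without siMYOF replicate 2 (adjusted p = 0.0593). The siGL3 level was higher than the DMSO level by 1.26 (SE 0.21, adjusted p = 0.00249), and opposite-strand genes cover 22.4% of the SQSTM1 exon bases. Of these, MGAT4B was higher with WJ460 (1985, 1899 and 1997) than with DMSO (1462, 1494 and 1490). MRNIP was higher with WJ460 too (311, 350 and 387 against 247, 226 and 257). A sharing of reads with SQSTM1 was not tested.

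TAX1BP1, a receptor in the clearance of protein aggregates, stood at 2102, 2001 and 2039.8 with DMSO and 2599, 2717 and 2591 with WJ460, without overlap, and rose by 0.36 (SE 0.06, adjusted p = 3.16e-05). It stood at 2727, 2411 and 2331 with siGL3 and 2661, 2517 and 2482 with siMYOF, which overlapped, with a change of 0.04 (SE 0.06, adjusted p = 0.593). The difference of -0.33 (SE 0.08, adjusted p = 0.00274) passed.

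CALCOCO2, the receptor NDP52 known from the clearance of bacteria and mitochondria, stood at 2094, 2005 and 1984 with siGL3 and 2409.8, 2474 and 2332 with siMYOF, and at 1768, 1709 and 1813 with DMSO and 2378, 1933 and 1979 with WJ460. Neither pair overlapped, and it rose by 0.25 with siMYOF (adjusted p = 0.00749) and by 0.24 with WJ460 (adjusted p = 0.00828). Scaled by total reads both calls were lost, at 0.14 (adjusted p = 0.155) and 0.08 (adjusted p = 0.388), and without WJ460 replicate 1 the WJ460 value was 0.15 (adjusted p = 0.0471). The difference between both effects had a 95% interval of -0.21 to 0.22.

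NBR1, a receptor for aggregates and peroxisomes, stood at 603, 837 and 693 with siGL3, 757, 949 and 858 with siMYOF, 649, 659.7 and 655 with DMSO and 599, 695 and 663 with WJ460. It rose with siMYOF (0.27 (SE 0.08, adjusted p = 0.00991)) although the groups overlapped, and the late libraries alone gave 0.24 (adjusted p = 0.0579), as 0.20 did not pass without siGL3 replicate 3 (adjusted p = 0.0596). OPTN, a receptor for mitochondria, stood at 799.8, 814 and 934 with siGL3, 731, 774 and 827 with siMYOF, 547, 548 and 563 with DMSO and 743, 544 and 496 with WJ460. It passed in neither comparison (-0.13 (SE 0.11, adjusted p = 0.354) and 0.08 (SE 0.11, adjusted p = 0.557)), and every siRNA library except siMYOF replicate 1 was above all DMSO and WJ460 libraries.

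**Figure D4:**
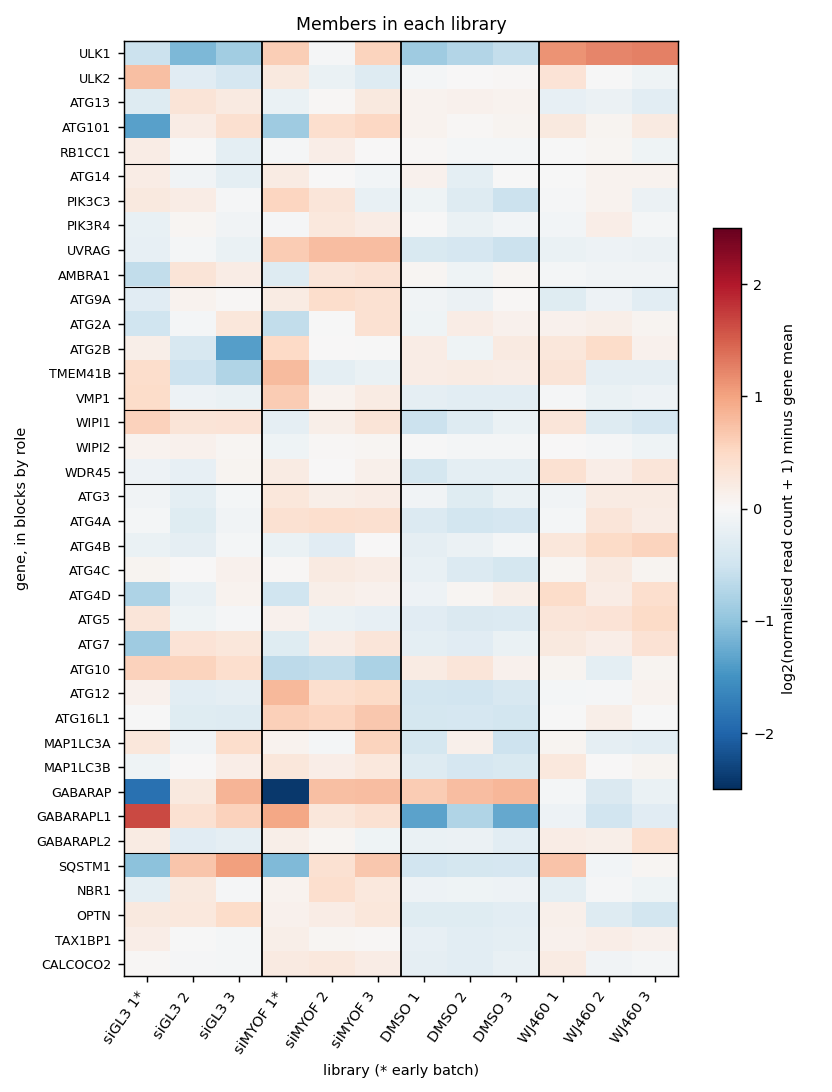
Heat map of log2(normalised read count + 1) minus the gene's mean (colour) for the 38 members (rows, blocks by role) in the 12 libraries (columns, asterisk for the early batch). The ULK1 row is highest in the WJ460 libraries, the ATG10 row lowest in the siMYOF libraries, and GABARAP and SQSTM1 are low in both early libraries.

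The control groups themselves differed for the members. Against DMSO, siGL3 was higher for 11 members, lower for 2 and not past the threshold for 25, where 16.1% of all genes tested were called higher and 16.0% lower, and the median was 0.19 beside -0.01 over all genes. The 11 were UVRAG, WIPI1, ATG4C, ATG5, ATG7, ATG12, MAP1LC3B, GABARAPL1, SQSTM1, OPTN and TAX1BP1, and the 2 were ATG2B (-0.89, lost without siGL3 replicate 3) and TMEM41B (-0.82). Of the rises, that of ATG12 (0.19, adjusted p = 0.0383) was lost with TMM or total-read scaling, with edgeR and DESeq2 and on leaving out siGL3 replicate 2 or 3, siMYOF replicate 3 or any DMSO library, that of ATG7 without siGL3 replicate 2 (0.32, adjusted p = 0.0581) and that of ATG4C without DMSO replicate 3 (0.35, adjusted p = 0.0538). This comparison shares its control libraries with both others, and transfection, solvent and handling cannot be told apart in it.

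Replicate 1 of WJ460 also stood apart for several members. It was the highest of its group for TMEM41B (1391 against 952 and 951), WIPI1 (168 against 109.5 and 101), OPTN (743 against 544 and 496), CALCOCO2 and SQSTM1, and the lowest for ATG3 (1379 against 1699 and 1678) and ATG4A. Without it the rise of ATG4D no longer passed and the fall of TMEM41B did, so 17 members were higher and 3 lower with WJ460. Over all single libraries left out, this run among them, the counts were 17 to 19 higher and 2 to 3 lower.

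Genes next to the machinery were counted from lists chosen with earlier results of these data known, and their shares stand beside 28.0% higher and 25.9% lower over all genes with siMYOF and 27.3% and 25.6% with WJ460. Of 13 transcription factors and regulators of autophagy genes, 9 rose (69.2%) and none fell with siMYOF, and 5 rose (38.5%) and 4 fell (30.8%) with WJ460. ATF4, a factor of the integrated stress response, rose by 1.73 (SE 0.08, adjusted p = 1.1e-11) with siMYOF and 0.68 (SE 0.08, adjusted p = 1.13e-06) with WJ460, and its partner DDIT3 by 1.10 and 0.64. TFEB, a driver of lysosomal genes, was a gene of few reads that fell with WJ460, from 32.5, 30.9 and 24.6 to 13.9, 17.7 and 13.5 (-0.92 (SE 0.25, adjusted p = 0.00457)), while its paralogue TFE3 rose by 0.54 and by 0.21 with siMYOF. ZKSCAN3, a repressor of autophagy genes, fell by 0.92 with WJ460 (adjusted p = 6.4e-05) and lay at 0.01 with siMYOF, and FLCN and CEBPB rose with siMYOF by 0.84 and 1.07.

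Of 29 tested genes of mTORC1 and AMPK signalling, which restrain and activate ULK1, 10 rose (34.5%) and 9 fell (31.0%) with siMYOF and 8 rose and 8 fell (27.6% each) with WJ460, which is near the shares over all genes. SESN2, a stress-induced inhibitor of mTORC1, rose by 1.99 with siMYOF (adjusted p = 0.000848) and by 1.04 with WJ460 (adjusted p = 0.025), where replicate 1 stood at 721 and the others at 328 and 366. AKT1S1 and TSC2, which also restrain mTORC1, fell by 1.14 and 0.85 with siMYOF. With WJ460 DEPTOR, an mTOR inhibitor, fell from 50.2, 48.5 and 50.2 to 9.64, 3.13 and 13.5 (-2.56 (SE 0.33, adjusted p = 7.01e-06)). PRKAG1, an AMPK subunit, fell by 0.70 with siMYOF and rose by 0.70 with WJ460, and DDIT4, another mTORC1 inhibitor, rose by 0.93 and fell by 0.83.

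In the fusion list of 18 genes, 8 rose (44.4%) and 6 fell (33.3%) with siMYOF and 7 rose (38.9%) and 3 fell (16.7%) with WJ460. YKT6, a SNARE of autophagosome fusion, fell by 1.48 with siMYOF and rose by 0.59 with WJ460, whereas STX17, the other autophagosomal SNARE, fell by 1.00 and 0.62, and PLEKHM1, an adaptor of fusion, rose by 0.98 and 0.59. Of 22 ER-phagy and other receptors, 10 rose (45.5%) and 2 fell (9.09%) with siMYOF and 7 rose (31.8%) and 5 fell (22.7%) with WJ460. HDAC6, a deacetylase that carries aggregates, fell by 1.58 with siMYOF and rose by 0.46 with WJ460, and the ER-phagy receptor ATL3 rose by 1.28 and fell by 0.29. RETREG3, RTN3 and RETREG2, receptors of ER-phagy, fell with WJ460 by 0.62, 0.48 and 0.47. Of 13 other core genes tested of 16, 6 rose (46.2%) and 4 fell (30.8%) with siMYOF. Among them were EI24 (-3.16), BECN1 (-2.62), ATG16L2 (-1.07), NRBF2, a subunit of the lipid kinase complex (0.81), and TECPR1 (-0.81). With WJ460 4 rose (30.8%) and 1 fell (7.69%). The rises were C9orf72 (0.78), WDR45B, a paralogue of WDR45 (0.51), NRBF2 (0.47) and BECN1 (0.45, adjusted p = 0.00122), and the fall was TP53INP2 (-0.69). BECN1 thus fell with siMYOF and rose with WJ460.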

How the data were processed

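RNA was measured in 12 PANC-1 libraries of 4 groups. As the study's methods and the processing notes of the submitters state, the authors aligned reads to GRCh38 with STAR and quantified genes with Salmon, and the deposited signal values were gene reads that they had divided by 1 DESeq2 size factor per library. Each value was a whole multiple of what 1 read is worth in its library, within 0.001 reads for 100% of values, so whole reads were recovered, and recomputed median-of-ratios factors equalled the deposited ones. Depth was 12335147 to 19847210 reads, and counts of under about 100 reads limit ATG2B, MAP1LC3A, GABARAP and GABARAPL1 most.

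The main test was limma 3.58.1 (R 4.3.3; trended, robust) on log2(value + 1) over the 14720 genes with a mean of at least 5, with 4 groups and batch as terms in all 12 libraries and Benjamini-Hochberg adjusted p under 0.05. Adjusted p-values are from limma unless another tool is named. Members were described by counts and medians, with no set test. Values in every library were given for members past the threshold with an absolute log2 fold change of at least 0.5 in any comparison or in the difference between both, and for all ATG8 and receptor genes. Of each neighbouring list, up to 5 genes per comparison by largest change were eligible to be named.

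Alternatives were TMM or total-read scaling, edgeR 4.0.16 and DESeq2 1.42.0 on recovered reads, other filters and pseudocounts, no batch term, subsets of libraries, and a replicate block. Same-numbered siRNA libraries deviated together from their group means (correlations over genes of 0.818, 0.53 and 0.595). Their numbers were taken to pair them by the rule that each exceed 0.1, though much of this follows the batch. Late libraries of unlike number gave 0.493 and 0.45, and replicate 2 minus replicate 3 correlated at only 0.127 between the 2 siRNA groups. Coordinates and exon lengths came from GENCODE 44, of the same build, and promoters from RefSeq. The pipeline was tested on simulated data with the same dispersion for every gene, no gap between early and late libraries, and changes in siMYOF only. That test therefore does not cover the batch or the other comparisons. Members and lists were chosen with earlier results of these data known.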

Additional observations from a re-analysis of the deposited data

Results flagged for a closer look

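The siMYOF and WJ460 effects differed, by the interaction test of the limma fit, for 14 of the 38 members. In this test 15.8% of members were called higher and 21.1% lower, beside 24.2% and 24.0% of all genes tested. All of the following are siMYOF effect minus WJ460 effect on the log2 scale. The difference was positive for GABARAP (0.90), TMEM41B (0.65), UVRAG (0.57), ATG9A (0.57), ATG16L1 (0.33) and ATG12 (0.25). It was negative for GABARAPL1 (-1.14), ATG10 (-0.96), SQSTM1 (-0.93), ULK1 (-0.72 on a rise in both), ATG5 (-0.85), ATG4B (-0.59), WDR45 (-0.39) and TAX1BP1 (-0.33). For some of these members the controls differed too. In that test siGL3 was above DMSO for GABARAPL1 (1.69), SQSTM1 (1.26), UVRAG, ATG5, ATG12 and TAX1BP1, and below DMSO for TMEM41B. The siRNA and compound experiments also differ in transfection and in the time from first exposure, which cannot be told apart from the treatments.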

How the results depend on the processing

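Over the 38 members and 4 comparisons, 43 of 152 log2 values changed sign under at least 1 alternative, none of them past the threshold as reported, all of at most 0.24 in size, and none passing with the other sign. Scaling by total reads moved the median of all genes by -0.11 for siMYOF, -0.15 for WJ460 and -0.07 for siGL3 against DMSO, and changed the split of all genes from 4126 higher and 3806 lower to 3189 and 4757 with siMYOF, and from 4017 and 3767 to 2639 and 5195 with WJ460. With it, siMYOF raised 8 members and lowered 3 (ATG10, ATG5 and WIPI2), and WJ460 lowered 6 (ATG13, AMBRA1, ATG9A, TMEM41B, ATG10 and GABARAP). edgeR lowered 3 members with siMYOF (ATG10, ATG5 and GABARAPL1), where 4066 of 14720 genes were called lower. Without the batch term siMYOF raised 8 members, where 2800 of 14720 genes were called higher. WJ460 lowered 0 members, where 2543 genes were called lower, and its rises of ATG4D, ATG7, GABARAPL1 and SQSTM1 no longer passed. The difference between both was higher for 2 members and lower for 5, beside 2235 and 2074 genes. For siGL3 against DMSO 6 members were higher and 0 lower, beside 760 and 571 genes. That fit adds the gap between early and late libraries to the spread. Over all single libraries left out, siMYOF raised 11 to 15 and lowered 1 to 2 members, beside 3632 to 4279 and 3279 to 3947 of all genes. WJ460 raised 17 to 19 and lowered 2 to 3, beside 3531 to 4136 and 3257 to 3863 genes. The difference was higher for 5 to 8 and lower for 6 to 10, beside 3234 to 3604 and 3238 to 3548 genes. For siGL3 against DMSO 9 to 13 were higher and 1 to 3 lower, beside 1775 to 2614 and 1694 to 2550 genes. The fall of SQSTM1 with siMYOF passed without WJ460 replicate 1 (adjusted p = 0.0222), with its log2 value unchanged at -0.25. That library is in neither siRNA group and enters this p-value only through the spread that the 4 groups share in the fit.

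The replicate number was also set as a block, within the siRNA libraries and within the DMSO and WJ460 libraries. With it the differences of MAP1LC3B (-0.26, adjusted p = 0.031) and NBR1 (0.28, adjusted p = 0.033) passed, and no other member call changed. Same-numbered DMSO and WJ460 libraries did not deviate together (correlations of 0.0262, -0.002 and 0.00458), so these values give no ground for the block there. No paired analysis was possible for siGL3 against DMSO because those libraries share only a number. With only the groups compared no difference between both effects can be had.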
